A study of Homo sapiens with 4 samples.

Results

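The 10 genes described here encode core proteins of the junctions that hold epithelial cells together: CDH1, CTNNB1, JUP, DSP, DSG2, CLDN1, CLDN4, CLDN7, OCLN and TJP1. They were taken by symbol from the Ensembl rows of the deposited table, and each symbol matched 1 of the 53777 Ensembl genes. RNA sequencing was done on NUGC3, a stomach cancer cell line, with 2 libraries of cells with a MYC knockdown (labelled MYC_KD) and 2 of wild-type cells. MYC is a transcription factor that drives growth. The labels do not say by what agent or for how long MYC was knocked down, or whether the replicates were separate cultures, so a p-value measures the spread between these libraries, which may be technical.

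Adherens junctions join neighbouring cells through E-cadherin, the product of CDH1, whose cytoplasmic tail binds catenins that link it to actin. Desmosomes join cells through desmosomal cadherins such as desmoglein 2, which are tied to keratin filaments by plakoglobin and desmoplakin. Tight junctions seal the space between cells with claudins and occludin, held in place by scaffold proteins such as ZO-1. In the stomach these junctions keep acid and enzymes in the lumen, and loss of E-cadherin is a well-known feature of diffuse gastric cancer. Beta-catenin, the product of CTNNB1, also acts in the nucleus as the effector of Wnt signalling.

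Values are FPKM, fragment numbers scaled by transcript length and by library size, so levels can be compared between genes. Low values came in steps, which put MYC knockdown replicates 1 and 2 and wild type replicate 2 at roughly 72.0% to 74.8% of the depth of wild type replicate 1. MYC itself stood at 65.0 and 75.8 FPKM in the knockdown libraries, against 82.9 and 82.0 FPKM in the wild-type libraries. The groups did not overlap, but the difference was small (log2 change −0.23, SE 0.101; adjusted p = 0.237 in limma), and it rested on the library and the scaling. Its log2 change was −0.34 (limma adjusted p = 0.021) without MYC knockdown replicate 2, −0.13 (0.475) under equal column sums and −0.12 (0.115) without MYC knockdown replicate 1; over all alternatives the adjusted p ran from 0.021 to 0.763. Over all 12953 genes tested, the median absolute log2 difference was 0.20 between the 2 knockdown libraries and 0.08 between the 2 wild-type libraries. Over the 10 junction genes it was 0.23 between the knockdown libraries and 0.02 between the wild-type libraries. Epithelial markers were high: EPCAM, an epithelial surface protein, stood at 181 and 197 FPKM in the knockdown, against 209.8 and 208.8 FPKM in wild type, and KRT18, a keratin of simple epithelia, at 2118 and 1824 FPKM in the knockdown, against 2092 and 2131 FPKM in wild type. KRT19, another such keratin, stood at 1047 and 1153 FPKM in the knockdown, against 655 and 661 FPKM in wild type (log2 change 0.74; limma adjusted p = 0.0556). Over the alternatives that kept every library, the limma adjusted p of KRT19 ran from 0.0431 to 0.145. Of 8 mesenchymal markers, 4 were under 1 FPKM in every library, among them CDH2 (N-cadherin), with COL1A2 and COL3A1 at 0 throughout. The summed level of the 8 was 961 and 1690 FPKM in the knockdown, against 859 and 911 FPKM in wild type, nearly all of it FN1 (fibronectin). FN1 stood at 949 and 1676 FPKM in the knockdown, against 850.2 and 903 FPKM in wild type, and VIM (vimentin) at 1.26 and 8.32 FPKM in the knockdown, against 1.17 and 1.0 FPKM in wild type, so both were highest in MYC knockdown replicate 2. The other 2 markers tested did not share this: COL1A1 (collagen I) stood at 8.12 and 2.98 FPKM in the knockdown, against 6.57 and 5.75 FPKM in wild type, and ACTA2 (smooth muscle actin) at 2.42 and 2.15 FPKM in the knockdown, against 0.85 and 1.23 FPKM in wild type. Of 4 blood cell markers, PTPRC was at 0 throughout and CD68, which other cells also express in lysosomes, stood at 21.5 and 22.3 FPKM in the knockdown, against 12.4 and 17.1 FPKM in wild type. Of 3 endothelial markers, the 2 with a row were CDH5, at 0.20 FPKM or below, and VWF, at 0.

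All 10 junction genes were well expressed in every library, and their differences between the groups were small and ran in both directions. CLDN1 (log2 change 0.62) and CDH1 (0.30) were higher in both knockdown libraries, and for each gene these libraries were close to one another. TJP1, DSP and CLDN7 were lower in both. CTNNB1, DSG2 and CLDN4 were above wild type mainly in MYC knockdown replicate 2, and the groups overlapped for JUP and OCLN. With limma and Benjamini-Hochberg adjustment over all genes, 0 of the 10 passed 0.05, where 0 of the 12953 genes tested passed (0.0%). At an unadjusted p under 0.05 there were 5 of the 10, CLDN1 and CDH1 higher and TJP1, DSP and CLDN7 lower, where 3354 genes (25.9%; 14.4% higher and 11.5% lower) reached it over the whole table. At an adjusted p under 0.10 there were 2, CLDN1 and TJP1, against 10.4% of all genes tested (5.5% higher and 4.91% lower). The groups did not overlap for 8 of the 10, 5 higher and 3 lower, against 58.6% of all genes tested (33.4% higher and 25.2% lower), and with a library scaling by median of ratios for 5 of the 10, against 60.0%. The median log2 change of the 10 was 0.05 and that of all genes tested 0.04.

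**Figure D1:**
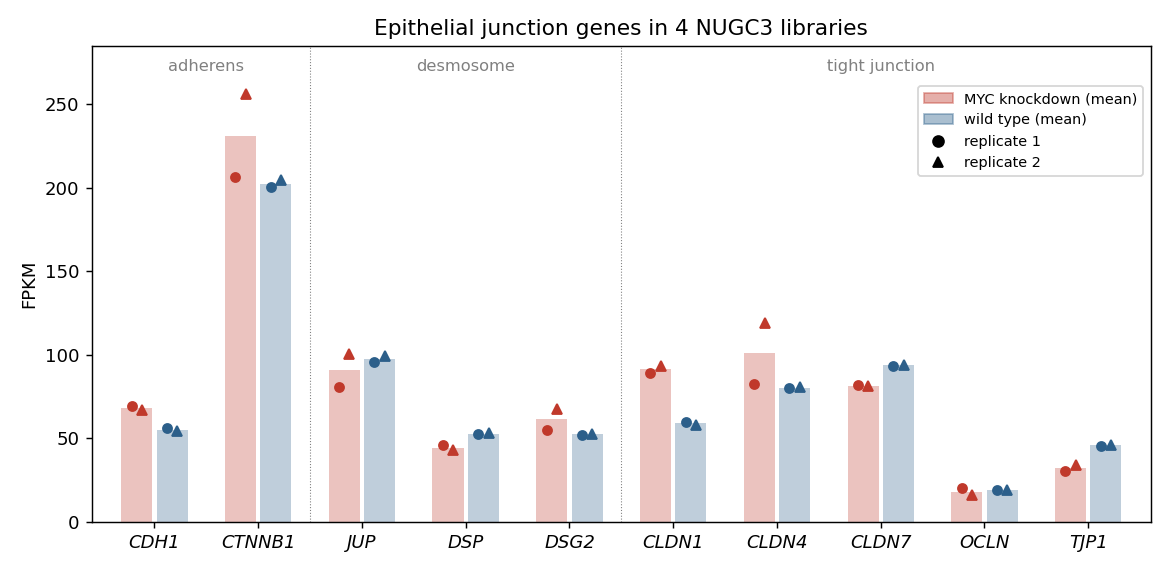
FPKM of the 10 junction genes in the 4 NUGC3 libraries. Bars are group means (n = 2), circles replicate 1 and triangles replicate 2, with MYC knockdown left of wild type for each gene; CTNNB1 is the highest gene and OCLN the lowest in both groups, and the wild-type points nearly coincide. JUP is drawn with the desmosome genes but is also found in adherens junctions.

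Of the adherens junction genes, CDH1 was higher in both knockdown libraries and CTNNB1 chiefly in 1 of them. CDH1 (ENSG00000039068; chromosome 16, 68737225 to 68835548, plus strand, by GENCODE 29 for GRCh38, as are all gene positions below) encodes E-cadherin, the adhesion receptor of these junctions. It stood at 69.6 and 67.0 FPKM in the knockdown libraries, against 56.0 and 54.2 FPKM in the wild-type libraries. The knockdown pair lay close together and above the wild-type pair, by 24.0% in the mean (68.3 ± 1.77 FPKM in the knockdown, 55.1 ± 1.21 FPKM in wild type; SD, n = 2 per group). On the log2 scale the change was 0.30 (SE 0.0749; limma adjusted p = 0.103).

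CTNNB1 (ENSG00000168036; chromosome 3, 41194741 to 41260096, plus strand) encodes beta-catenin, which binds the E-cadherin tail. It was the most abundant of the 10 RNAs, at 206 and 256 FPKM in the knockdown libraries, against 200.5 and 205 FPKM in the wild-type libraries. MYC knockdown replicate 1 was barely above wild type, at a log2 difference of 0.03 from the wild-type mean, and MYC knockdown replicate 2 was above it by 0.34. The knockdown libraries therefore differed from each other (0.31) by more than the groups did (log2 change 0.18, SE 0.121; limma adjusted p = 0.402). With a scaling by median of ratios the groups overlapped, at 198 and 259 FPKM in the knockdown, against 204 and 207 FPKM in wild type.

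The desmosome genes differed in direction in the knockdown libraries: desmoglein 2 RNA was higher and desmoplakin RNA lower. DSG2 (ENSG00000046604; chromosome 18, 31498043 to 31549008, plus strand) encodes a desmosomal cadherin that spans the membrane. It stood at 54.9 and 67.6 FPKM in the knockdown, against 52.0 and 52.5 FPKM in wild type. Both knockdown values were above wild type, MYC knockdown replicate 1 only slightly, and the log2 change was 0.22 (SE 0.121; limma adjusted p = 0.321). With median of ratios MYC knockdown replicate 1 was at 52.8 FPKM against 52.9 and 53.1 FPKM in wild type, so the groups overlapped. DSP (ENSG00000096696; chromosome 6, 7541575 to 7586717, plus strand) encodes desmoplakin, the plaque protein that anchors keratin filaments. It stood at 46.1 and 42.7 FPKM in the knockdown, against 52.5 and 52.9 FPKM in wild type. Wild type was higher in each library (log2 change −0.24, SE 0.0814; limma adjusted p = 0.160). JUP (ENSG00000173801; chromosome 17, 41754604 to 41786931, minus strand) encodes plakoglobin, a relative of beta-catenin found in desmosomes and in adherens junctions. It stood at 80.9 and 100.6 FPKM in the knockdown, against 95.8 and 99.0 FPKM in wild type. Wild type lay between the knockdown libraries, so the sign of the difference depended on the library: replicate 1 of the knockdown was at −0.26 and replicate 2 at 0.05 (limma log2 change −0.11, SE 0.124, adjusted p = 0.619).

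The claudins differed in direction. CLDN1 had the largest difference of the 10 genes, CLDN7 was slightly lower, and CLDN4 was higher in 1 knockdown library. Claudins are 4-pass membrane proteins that form the strands of the tight junction and set which ions pass. CLDN1 (ENSG00000163347; chromosome 3, 190305701 to 190322475, minus strand), a barrier-forming claudin, stood at 89.3 and 93.2 FPKM in the knockdown, against 59.9 and 58.0 FPKM in wild type. The pairs were far apart relative to their spread, at 91.2 ± 2.79 FPKM in the knockdown and 59.0 ± 1.36 FPKM in wild type (SD, n = 2 each), a ratio of 1.55. On the log2 scale the change was 0.62 (SE 0.0747), above 94.5% of all genes tested. Limma's adjusted p was 0.0556; testing protein-coding rows alone gave 0.0434, and a filter at a mean of 5 FPKM gave 0.0465. It ranged from 0.0105 to 0.545 over all alternatives.

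CLDN4 (ENSG00000189143; chromosome 7, 73799542 to 73832693, plus strand), a claudin common in glandular epithelium, stood at 82.4 and 119 FPKM in the knockdown, against 80.0 and 80.5 FPKM in wild type. MYC knockdown replicate 1 was near wild type and MYC knockdown replicate 2 far above it, a difference of 0.53 on the log2 scale within the group. Its log2 change, 0.30, had the largest standard error of the 10 genes, 0.187 (limma adjusted p = 0.370), and with median of ratios the groups overlapped, at 79.2 and 120.6 FPKM in the knockdown, against 81.4 and 81.5 FPKM in wild type. CLDN7 (ENSG00000181885; chromosome 17, 7259903 to 7263983, minus strand), a claudin of simple epithelia, stood at 81.8 and 81.3 FPKM in the knockdown, against 93.4 and 93.9 FPKM in wild type. It had the tightest replicates of the 10 and the groups did not overlap (log2 change −0.20, SE 0.0692; limma adjusted p = 0.172). With equal column sums its change was −0.10. CLDN7 exons share 38 bases with ELP5 on the opposite strand and 269 with a second annotated gene on their own strand. ELP5 stood at 59.4 and 55.8 FPKM in the knockdown, against 59.9 and 60.0 FPKM in wild type. The second gene was at 0 FPKM in every library. Strandedness of the libraries is unstated, and the part of this overlap in the CLDN7 value was not tested.

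OCLN and TJP1 encode partners at the same junction but were unlike in their differences. OCLN (ENSG00000197822; chromosome 5, 69492292 to 69558104, plus strand) encodes occludin, a membrane protein of the tight junction. It was the lowest of the 10, at 20.2 and 15.8 FPKM in the knockdown, against 19.2 and 18.9 FPKM in wild type. The knockdown libraries lay on either side of wild type (log2 change −0.08, SE 0.139; limma adjusted p = 0.745). The annotation lists a pseudogene copy, OCLNP1, on the same chromosome, and any part of it in the OCLN value was not tested. TJP1 (ENSG00000104067; chromosome 15, 29699367 to 29968865, minus strand) encodes ZO-1, the scaffold that ties claudins and occludin to actin. It stood at 30.1 and 33.8 FPKM in the knockdown, against 45.6 and 45.9 FPKM in wild type. The groups were far apart, and the knockdown mean was 0.698 times that of wild type. The log2 change was −0.51 (SE 0.0932), lower than in all but 6.19% of the genes tested, and limma's adjusted p was 0.0712. Over the alternatives that kept every library, this p ran from 0.0598 (a mean of at least 5 FPKM) to 0.161 (no filter).

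**Figure D2:**
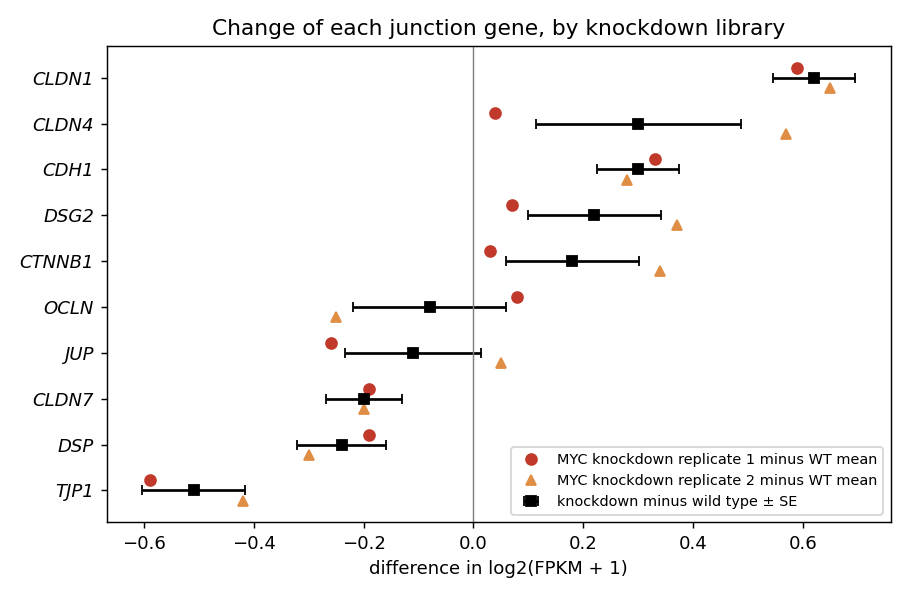
Difference from wild type of each junction gene on the log2(FPKM + 1) scale. Black squares with bars are the limma log2 change ± standard error (2 libraries per group); circles and triangles are MYC knockdown replicates 1 and 2 minus the wild-type mean. The libraries lie close together for CLDN1, CDH1 and CLDN7, and apart for CLDN4, where the values are 0.04 and 0.57.

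The region at the start of transcription of CLDN1, which had the largest positive difference, and of TJP1 and CLDN7, which were lower, is shown here because MYC and the repressors of epithelial genes are known to bind short E-box motifs in promoters. RefSeq's windows on GRCh38.p14 run from 250 bases before to 50 bases after an annotated start. There were 15 windows for 9 of the 10 genes (all but CDH1). Capitals mark CAGGTG or its reverse complement CACCTG, the E-box bound by proteins of the SNAIL and ZEB families. Each sequence reads 5′ to 3′ on the gene's own strand.
CLDN1 start region, chr3:190322397-190322696, minus strand: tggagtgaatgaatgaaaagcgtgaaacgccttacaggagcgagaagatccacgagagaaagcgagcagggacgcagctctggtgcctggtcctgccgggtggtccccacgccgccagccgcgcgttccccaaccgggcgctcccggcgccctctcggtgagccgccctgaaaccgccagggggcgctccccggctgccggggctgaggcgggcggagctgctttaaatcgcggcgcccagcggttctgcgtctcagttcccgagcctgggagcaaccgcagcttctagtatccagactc
CLDN7 start region, chr17:7262429-7262728, minus strand: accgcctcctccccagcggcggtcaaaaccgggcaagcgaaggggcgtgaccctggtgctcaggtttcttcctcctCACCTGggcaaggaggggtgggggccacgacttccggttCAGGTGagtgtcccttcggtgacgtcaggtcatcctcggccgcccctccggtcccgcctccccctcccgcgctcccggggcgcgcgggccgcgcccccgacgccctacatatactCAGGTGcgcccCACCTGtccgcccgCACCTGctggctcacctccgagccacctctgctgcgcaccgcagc
TJP1 start region, chr15:29969000-29969299, minus strand: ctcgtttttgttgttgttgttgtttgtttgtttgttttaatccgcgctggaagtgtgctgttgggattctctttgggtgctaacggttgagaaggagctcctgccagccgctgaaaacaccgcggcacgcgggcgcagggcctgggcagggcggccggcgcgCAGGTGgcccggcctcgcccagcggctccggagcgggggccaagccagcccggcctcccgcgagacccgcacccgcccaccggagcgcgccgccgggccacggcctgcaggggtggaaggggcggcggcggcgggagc

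The CLDN7 window held 5 matches to CAGGTG on either strand, the TJP1 window 1 and the CLDN1 window 0. The TJP1 window shown lies wholly outside the gene bounds given above, because RefSeq puts this start farther upstream than GENCODE 29 does. TJP1 and CLDN7 have other annotated starts whose windows held none, so the windows shown are their only ones with a match. The contrast with CLDN1 thus depends on which windows were shown, and these data do not show which start the cells used. DSP was lower as well, and its window, not shown, held 2 matches. Over the junction genes, 7 of 15 windows, from 6 of 9 genes, held CAGGTG, and the share over all 35116 windows was 20.6%. The 3 genes with none were CTNNB1, CLDN1 and CLDN4. All 3 were above wild type in both knockdown libraries, though CTNNB1 and CLDN4 mainly in replicate 2, and with median of ratios the groups of these last 2 overlapped. The 6 with a match differed in direction. DSG2 was higher in the knockdown, mainly in replicate 2, while CLDN7, DSP and TJP1 were lower, and the groups overlapped for JUP and OCLN. A link between matches and direction was not tested. The E-box CACGTG, which MYC binds with MAX and which reads the same on both strands, was in 0 of the 15 windows and in 7.26% of all windows. The site AACCGGTT, bound by grainyhead-like factors and likewise the same on both strands, was in 0 of the 15 and in 0.134% of all. These 3 motifs do not overlap one another, and a match is a description of letters. The CLDN1, CLDN7 and TJP1 windows shown were rich in G and C, at 67.0%, 71.7% and 70.0%, where the median of all windows was 58.7%.

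In the order of levels, CTNNB1 was first and OCLN last in both groups. CTNNB1 stood above 97.3% of all genes tested in the knockdown and above 96.9% in wild type, and OCLN above 59.2% in the knockdown and 61.8% in wild type. In the knockdown the order was CTNNB1, CLDN4, CLDN1, JUP, CLDN7, CDH1, DSG2, DSP, TJP1 and OCLN. In wild type it was CTNNB1, JUP, CLDN7, CLDN4, CLDN1, CDH1, DSP, DSG2, TJP1 and OCLN. In the knockdown 4 of the 9 neighbouring pairs had overlapping libraries: CLDN4 with CLDN1, CLDN1 with JUP, JUP with CLDN7, and CDH1 with DSG2. In wild type 0 of 9 did, although DSP and DSG2 were as close as 52.7 and 52.2 FPKM in the mean.

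The 10 genes together held 762 and 877 FPKM in the knockdown libraries, against 755 and 760.4 FPKM in the wild-type libraries, so MYC knockdown replicate 1 was just above wild type and replicate 2 well above it. The desmosome members JUP, DSP and DSG2 summed to 182 and 211 FPKM in the knockdown, against 200.3 and 204 FPKM in wild type, and the groups overlapped. The tight junction members summed to 304 and 343 FPKM in the knockdown, against 298 and 297 FPKM in wild type.

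Ratios of 2 genes within a library do not change when each library is scaled by a single factor, though quantile scaling can change them. The 9 ratios computed were chosen after the values had been seen and carry no test. The groups did not overlap for 7 of them. This had to follow for CLDN1 over CLDN7, CLDN1 over TJP1, DSG2 over DSP, CLDN4 over CLDN7 and CDH1 over TJP1. In each of these the first gene was higher and the second lower, with groups apart. The share over all pairs of genes was not computed. CLDN1 stood at 1.09 and 1.15 times CLDN7 in the knockdown libraries, against 0.641 and 0.618 times in the wild-type libraries, so the order of these 2 claudins was turned round. CLDN1 stood at 2.97 and 2.75 times TJP1 in the knockdown, against 1.31 and 1.26 times in wild type. CTNNB1 stood at 2.55 and 2.54 times JUP in the knockdown, against 2.09 and 2.06 times in wild type, although each gene alone varied between the knockdown libraries. The other 4 with groups apart were DSG2 over DSP, CLDN4 over CLDN7, OCLN over TJP1 and CDH1 over TJP1, all higher in the knockdown. The groups overlapped for CTNNB1 over CDH1, at 2.97 and 3.82 in the knockdown against 3.58 and 3.77 in wild type, and for JUP over DSP.

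Within the claudin family, the 22 rows in the table summed to 421 and 497 FPKM in the knockdown, against 424 and 425 FPKM in wild type, and 7 claudins had a mean of at least 1 FPKM. CLDN6, a claudin best known from embryonic tissue, was the most abundant, at 121 and 156 FPKM in the knockdown and 147 and 149 FPKM in wild type. CLDN18, whose stomach isoform marks normal gastric epithelium, was at 0.08 FPKM or below in each library. CLDN1 made up 21.2% and 18.8% of claudin FPKM in the knockdown libraries, against 14.1% and 13.6% in the wild-type libraries. CLDN7 made up 19.4% and 16.4% in the knockdown, against 22% and 22.1% in wild type, and CLDN4 19.6% and 24.0% in the knockdown, against 18.9% and 18.9% in wild type. The share of CLDN6 was also lower, at 28.8% and 31.4% in the knockdown, against 34.7% and 35.1% in wild type, although its FPKM overlapped. For the share of CLDN12 the groups overlapped. Shares of 1 total depend on one another.

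**Figure D3:**
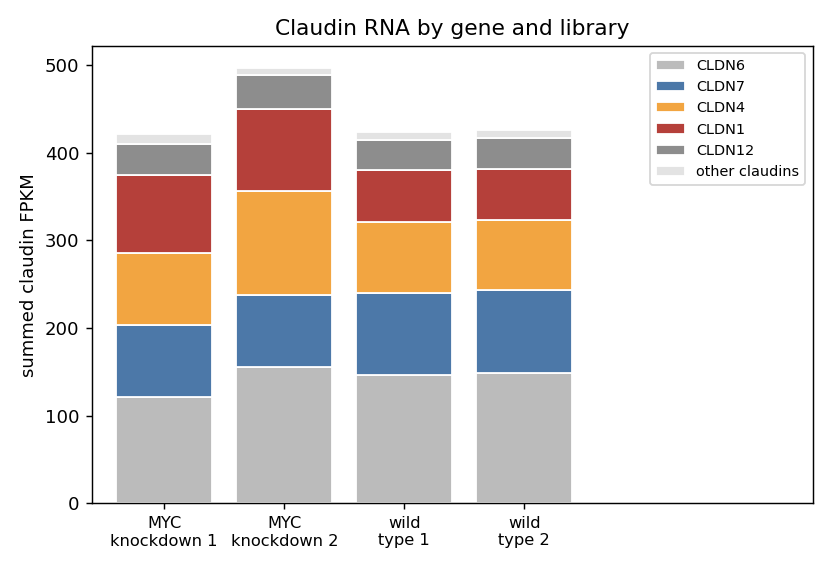
Summed FPKM of the 22 claudin rows in each library, split by gene. The CLDN1 segment is larger in both MYC knockdown libraries than in the wild-type libraries, at 89.3 and 93.2 FPKM in the knockdown and 59.9 and 58.0 FPKM in wild type, and the CLDN4 segment is largest in MYC knockdown replicate 2, at 119 FPKM.

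Several members lie next to relatives in the genome. CDH1 lies 14609 bases from CDH3, the gene of P-cadherin, which stood at 46.6 and 47.8 FPKM in the knockdown, against 49.0 and 48.0 FPKM in wild type, so the groups nearly met (log2 change −0.04; for CDH1 it was 0.30, and the difference between these genes was not tested). DSG2 lies in the desmosomal cadherin cluster of chromosome 18. Of its 6 relatives there, DSC2 alone had at least 1 FPKM in any library, at 6.78 and 8.98 FPKM in the knockdown, against 3.56 and 3.92 FPKM in wild type. DSC2 was higher in both knockdown libraries. DSG2 was too, but only slightly in MYC knockdown replicate 1, and with median of ratios its groups overlapped. CLDN4 lies 29272 bases from CLDN3, which stood at 4.78 and 2.40 FPKM in the knockdown, against 4.67 and 4.30 FPKM in wild type. CLDN16, beside CLDN1, was at 0.23 FPKM or below, and MARVELD2, the gene of tricellulin 47962 bases from OCLN, stood at 7.81 and 6.76 FPKM in the knockdown, against 5.72 and 6.10 FPKM in wild type. CDH3, DSC2 and MARVELD2 are named here for their position.

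Of the other genes of the same junctions, 0 passed an adjusted p of 0.05 in limma. The counts below stand beside those over all genes tested, of which 58.6% had groups apart (33.4% higher and 25.2% lower) and 25.9% reached an unadjusted p under 0.05 (14.4% higher and 11.5% lower). Of 11 other adherens junction genes, all tested, 3 were higher and 4 lower with groups apart (63.6%), and at an unadjusted p under 0.05 there were 2 higher and 2 lower (median log2 change −0.01). Alpha-catenin RNA (CTNNA1), which links beta-catenin to actin, stood at 143 and 143 FPKM in the knockdown, against 128 and 129.8 FPKM in wild type. CTNND1, the gene of p120-catenin, which holds cadherin at the membrane, stood at 98.6 and 123 FPKM in the knockdown, against 98.8 and 97.7 FPKM in wild type, with MYC knockdown replicate 2 the high one as for CTNNB1. VCL, the gene of vinculin, an actin linker, stood at 79.5 and 77.4 FPKM in the knockdown, against 80.1 and 82.3 FPKM in wild type.

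Of 12 other desmosome genes, 6 were tested, with 4 higher and 1 lower where groups were apart (83.3%), and 4 higher and 1 lower at an unadjusted p under 0.05 (median log2 change 0.29, against 0.04 for all genes tested). PERP, a membrane protein needed for desmosome assembly, stood at 192 and 231 FPKM in the knockdown, against 123 and 124 FPKM in wild type (log2 change 0.77; limma adjusted p = 0.0572, and 0.0071 to 0.523 over the alternatives). PKP3, the gene of plakophilin 3, stood at 127 and 121 FPKM in the knockdown, against 101 and 101 FPKM in wild type. PKP2, the gene of plakophilin 2, was on the other side, at 20.6 and 18.9 FPKM in the knockdown, against 28.9 and 29.9 FPKM in wild type (log2 change −0.55; limma adjusted p = 0.0632, and 0.0137 to 0.57 over the alternatives). The plakophilins, which link cadherins to desmoplakin, thus lay on opposite sides of wild type. The 6 not tested include DSG3, DSG4 and DSC1, at 0 in every library.

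Of 19 other claudins, 4 were tested, 2 of them higher and 0 lower with groups apart, and at an unadjusted p under 0.05 there were 1 higher and 0 lower (median log2 change −0.01). CLDN12 stood at 35.3 and 38.4 FPKM in the knockdown, against 34.0 and 35.1 FPKM in wild type. Of 15 other tight junction genes, 11 were tested, with 5 higher and 1 lower where groups were apart (54.5%), and 1 higher and 0 lower at an unadjusted p under 0.05 (median log2 change 0.15). LSR, the gene of a protein of tricellular contacts, stood at 129 and 192 FPKM in the knockdown, against 112 and 121 FPKM in wild type. F11R, the gene of junctional adhesion molecule A, stood at 42.5 and 51.8 FPKM in the knockdown, against 48.8 and 58.7 FPKM in wild type.

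The 15 apical-basal polarity genes, which position junctions along the cell side, were all tested, and 6 were higher and 0 lower with groups apart (40.0% apart; 1 higher and 0 lower at an unadjusted p under 0.05; median log2 change 0.08). SCRIB, a basolateral scaffold, stood at 92.2 and 74.8 FPKM in the knockdown, against 78.8 and 77.4 FPKM in wild type. DLG1, its partner, stood at 55.1 and 49.6 FPKM in the knockdown, against 47.0 and 45.5 FPKM in wild type, and PRKCI, an atypical protein kinase C, at 29.9 and 30.1 FPKM in the knockdown, against 26.9 and 28.5 FPKM in wild type. The differences in these polarity genes were small. Of 8 gap junction genes, which form channels between cells, 4 were tested, with 0 higher and 2 lower where groups were apart (0 higher and 1 lower at an unadjusted p under 0.05; median log2 change −0.10). The 1 that was lower at that p, which is also 1 of the 2 with groups apart, entered the test through the wild-type libraries alone. Its side followed from that entry, so it is no separate result. The connexin gene GJB2 stood at 15.7 and 41.9 FPKM in the knockdown, against 26.3 and 27.0 FPKM in wild type, a wide split between the knockdown libraries. GJB5, another connexin gene, stood at 12.2 and 18.0 FPKM in the knockdown, against 14.3 and 16.2 FPKM in wild type, and its groups overlapped in the same way.

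**Figure D4:**
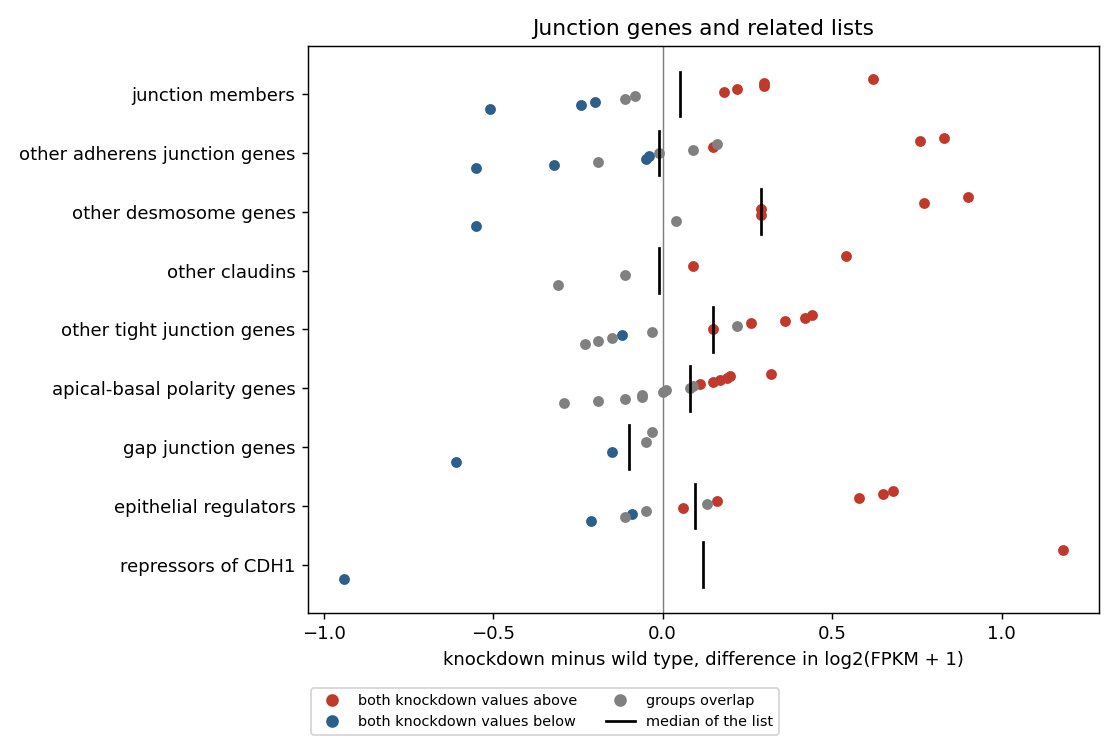
Log2 change, knockdown minus wild type, of each tested gene in the junction set and in 8 related lists, on the log2(FPKM + 1) scale. Red and blue points have both knockdown values above or below both wild-type values, grey points overlap, and black bars are list medians; the junction members run from −0.51 (TJP1) to 0.62 (CLDN1) about a median of 0.05.

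Among regulators of epithelial genes, KLF5, a Krüppel-like factor of gut epithelium, stood at 68.7 and 56.9 FPKM in the knockdown, against 38.2 and 39.2 FPKM in wild type (log2 change 0.68, SE 0.115; limma adjusted p = 0.0651). Both knockdown values were well above wild type. Over the alternatives that kept every library, the limma adjusted p of KLF5 ran from 0.0523 to 0.162. ESRP1, a splicing regulator specific to epithelial cells, stood at 68.9 and 82.9 FPKM in the knockdown, against 81.2 and 75.5 FPKM in wild type, and EHF, an epithelial ETS factor, at 59.8 and 77.5 FPKM in the knockdown, against 74.5 and 73.0 FPKM in wild type, and the groups overlapped for both. Of the 11 in this list 10 were tested, 5 higher and 2 lower with groups apart (70.0%), with 3 higher and 0 lower at an unadjusted p under 0.05 (median log2 change 0.10). Of 6 known repressors of CDH1, 2 were tested. SNAI2, the gene of SLUG, stood at 14.7 and 20.6 FPKM in the knockdown, against 6.70 and 7.56 FPKM in wild type (log2 change 1.18, SE 0.187; limma adjusted p = 0.0616, and 0.0106 to 0.523 over the alternatives). SNAI1, the gene of SNAIL, stood at 0.23 and 0.16 FPKM in the knockdown, against 1.28 and 1.29 FPKM in wild type (log2 change −0.94, SE 0.196; limma adjusted p = 0.0850), and entered the test through the wild-type libraries alone. These 2 repressors lay on opposite sides of wild type while CDH1 was higher. The side of SNAI1 followed from how it entered the test, so it is no separate result. ZEB1, a further repressor, was at 0.03 FPKM or below in each library.

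Of 7 genes that turn beta-catenin over, all tested, 1 was higher and 2 were lower with groups apart (42.9% apart; 0 higher and 1 lower at an unadjusted p under 0.05; median log2 change −0.03). CSNK1A1, a casein kinase that marks beta-catenin for destruction, stood at 100.4 and 121 FPKM in the knockdown, against 105 and 109.6 FPKM in wild type. GSK3A, one of the kinases that follow it, stood at 42.9 and 35.0 FPKM in the knockdown, against 32.1 and 33.8 FPKM in wild type. FBXW11, a ubiquitin ligase subunit that reads the mark, stood at 23.6 and 22.3 FPKM in the knockdown, against 22.9 and 24.1 FPKM in wild type. Of 9 known target genes of beta-catenin, 3 were tested, with 0 higher and 2 lower where groups were apart (66.7% apart; 0 higher and 1 lower at an unadjusted p under 0.05; median log2 change −0.21). The target list was near the floor of the data: AXIN2, a general target of Wnt signalling, was at 0.13 FPKM or below in each library. ZNRF3, a ligase that removes Wnt receptors, stood at 3.16 and 3.41 FPKM in the knockdown, against 3.92 and 4.0 FPKM in wild type, and TCF7, a partner of beta-catenin on DNA, at 1.21 and 2.14 FPKM in the knockdown, against 1.34 and 1.45 FPKM in wild type. NOTUM, a secreted Wnt inhibitor, stood at 0.64 and 0.58 FPKM in the knockdown, against 1.68 and 1.77 FPKM in wild type, and entered the test through the wild-type libraries alone. NOTUM is the 1 gene lower at an unadjusted p under 0.05 in limma, and 1 of the 2 lower with groups apart. The side of NOTUM followed from how it entered the test, so it is no separate result. The share apart and the median of this list include it. The genes of this list that were not tested had means under 1 FPKM and are not in these counts. Some of them had groups apart, in both directions.

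Leaving out a knockdown library changed the calls. In these fits the spread comes from the wild-type libraries, which lie close together, and the lone knockdown library is assumed to vary like them. Without MYC knockdown replicate 1, 8 of the 10 junction genes passed an adjusted p of 0.05, and without MYC knockdown replicate 2, 5 did. CDH1, CLDN1, CLDN7 and TJP1 passed in both of these fits. JUP passed without MYC knockdown replicate 2 alone, at −0.26, and was at 0.05 without MYC knockdown replicate 1. CTNNB1, DSG2 and CLDN4 passed without MYC knockdown replicate 1 alone, at 0.34, 0.37 and 0.57, and were at 0.03, 0.07 and 0.04 without MYC knockdown replicate 2. DSP passed without MYC knockdown replicate 1 alone as well, at −0.30. Over the whole table these fits called 3384 and 3413 genes. The library in which CTNNB1, JUP, DSG2 and CLDN4 were higher, MYC knockdown replicate 2, also had the most FN1 and VIM RNA of the 4 libraries but the least COL1A1 RNA, and less ACTA2 RNA than MYC knockdown replicate 1. The part of mesenchymal RNA in these differences was not tested.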

How the data were processed

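RNA was measured in 2 MYC knockdown and 2 wild-type libraries of NUGC3 cells, grouped and numbered by the sample titles. Trizol extraction of total RNA and standard Illumina library preparation are given per the labels' protocols. STAR and RSEM are named per the submitters' processing notes; versions, build and annotation: not given in the sources used here. Values were taken as FPKM as deposited by the authors, a unit inferred from the values: columns sum to between 674328 and 739335, and low values step with transcript length. Steps in genes of 1 transcript of 1000 to 1500 bases, less an assumed fragment of 150 bases, would put the libraries at about 18.7, 19.0, 26.0 and 19.4 (each times 1e+06) fragments (knockdown replicates 1 and 2, wild type replicates 1 and 2). Whole read counts were not obtained from them, and no count test or counting interval is given.

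From the deposited FPKM, 12953 Ensembl genes reached 1 FPKM in 2 or more libraries and entered the test, on log2(FPKM + 1), by limma 3.58.1 (eBayes, trend on the mean; R 4.3.3), knockdown minus wild type, with Benjamini-Hochberg adjustment over all of them and a threshold of 0.05; this scale understates changes of low genes. The fit was tested on simulated data with 1 spread for every gene, simpler than the real spread. Lists were described by counts and medians, with no set test; 141 of 142 listed symbols had a row. In each related list the 3 genes with the highest mean FPKM were named, whatever their change, except that some are not reported here; others are named for position, as markers, or for being at 0 or near it. The members and lists were chosen with earlier results of these data known. Alternatives were the pseudocount (0.1), the filter, a replicate block, each library left out, 3 scalings, protein-coding rows alone and the thresholds. Positions are from GENCODE 29 by Ensembl ID, and start regions from RefSeq by symbol.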

Additional observations from a re-analysis of the deposited data

How the results depend on the processing

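Each group held 2 libraries, and the knockdown pair lay farther apart than the wild-type pair for all 10 junction genes. Genes called at 0.05 by limma numbered 0; they numbered 324 with a mean of at least 5 FPKM, 385 with protein-coding rows alone, 313 with median of ratios, and 0 with a pseudocount of 0.1, no filter, equal column sums or quantile scaling. At an adjusted p under 0.10 they were 1349 and at an unadjusted p under 0.05 they were 3354. Junction genes called went from 0 to 1 with a mean of at least 5 FPKM and with protein-coding rows alone (CLDN1 in both), to 2 under 0.10 and to 5 at an unadjusted p under 0.05. Leaving out 1 library gave 0 to 3413 genes, 0 to 8 junction genes and a median log2 change of the junction genes of 0.03 to 0.16. With equal column sums that median was 0.14, while the median of all genes tested moved from 0.04 to 0.12. With median of ratios 5 junction genes in place of 8 had groups apart. The count of groups apart cannot be taken with a library left out.

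A replicate block called 0 genes and 0 junction genes and left the median at 0.05. By the labels, same-numbered libraries share only a number. Their deviations from the group means correlated at −0.00587 over 12953 genes. The wild-type libraries lie close together, so this value cannot tell whether same-numbered libraries shared a batch.

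Log2 changes took both signs as each library was left out for JUP (−0.26 to 0.05), OCLN (−0.25 to 0.08), CLDN3 (−0.69 to 0.08), CLDN6 (−0.29 to 0.07), SCRIB (−0.06 to 0.24), GJB2 (−0.73 to 0.63), GJB5 (−0.30 to 0.23), ESRP1 (−0.18 to 0.08), EHF (−0.30 to 0.07), CSNK1A1 (−0.09 to 0.17), FBXW11 (−0.07 to 0.01), TCF7 (−0.12 to 0.39), KRT18 (−0.21 to 0.0044) and COL1A1 (−0.84 to 0.35). Signs also turned with equal column sums for OCLN (0.01), VCL (0.05), GJB2 (0.04), GJB5 (0.06), ESRP1 (0.04), FBXW11 (0.06); with median of ratios for CSNK1A1 (−0.0016); with quantile for KRT18 (0.17). The cause was not tested. Of the 120 alternatives for the 10 junction genes, 102 kept both direction and side of the threshold, 15 newly passed it and 3 turned sign.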
